A study of Mus musculus with 5 samples.

Results

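The genes described are 10 members of the Notch pathway, taken by their symbols from the 33696 genes listed in every library: the receptors *Notch1*, *Notch2* and *Notch3*, the ligands *Jag1*, *Dll1* and *Dll4*, the transcriptional repressors *Hes1*, *Hes5* and *Hey1*, and *Hes6*. The single-cell RNA-seq libraries came from retinas of *Glast-CreERT2*; *Rosa26-Ai65* mice on C57BL/6J, 12 to 20 weeks of age, both sexes pooled, with no untreated group. All mice received tamoxifen and an intravitreal ShH10 AAV, and cells were sorted on tdTomato and collected on day 56. The control virus carried *mKate2* and the other carried *Yap5SA*, a YAP variant that resists inhibition by the Hippo kinases. In both the *Gfap* promoter drove the transgene together with the recombinase FlpO, and tdTomato needed both FlpO and Cre, so expression was limited to infected Müller glia (MG) and their progeny as far as the promoter, the *Glast* driver and the sort were specific. There were 2 mKate2 AAV libraries and 3 Yap5SA AAV libraries, from 16 and 21 pooled retinas. Of the Yap5SA AAV libraries, replicates 1 and 2 had 1361 barcodes in common, 99.8% of the smaller one, so they held the same cells. Replicate 2 was left out, and 4 libraries remained. Other pairs of libraries shared at most 7 barcodes.

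MG were cells with at least 1000 UMIs (unique molecules), at most 15% of UMIs from mitochondrial genes and at least 0.5% from the MG genes *Glul*, *Rlbp1*, *Slc1a3*, *Clu* and *Aqp4*. This gave 6540 MG of 10749 cells, namely 1498 and 2898 in the mKate2 AAV libraries (replicates 1 and 2) and 803 and 1341 in the Yap5SA AAV libraries (replicates 1 and 3), and values are given in this order of replicates throughout. Levels are CPM, the UMIs of a gene scaled to the total UMIs of all cells of a class in a library. They count 3′ ends and so do not scale with transcript length, and each test compared a gene with itself. Of the MG markers that this rule did not use, *Car14* was at 503 to 886 CPM in the MG and at 1.86 to 10.8 CPM in microglia and macrophages, *Dkk3* at 1150 to 1624 against 2.16 to 27.3 CPM and *Abca8a* at 743 to 2309 against 5.62 to 14.9 CPM. The other 4209 cells, 178 to 2739 a library, included microglia and macrophages, rods, cones, bipolar, amacrine and T cells, besides 63 to 106 cells a library in MG-like clusters but below the marker threshold and 68 to 342 unnamed cells. The labels give the cells as purified MG but name a sort of both tdTomato-positive and tdTomato-negative cells. The study's methods give positive cells, so which fraction the MG and the other cells belonged to is not known. The median UMI count of MG was 6194, 2918, 10778 and 2920. The file headers gave Cell Ranger release 8.0.0 for replicate 1 of each condition and 9.0.1 for mKate2 AAV replicate 2 and Yap5SA AAV replicate 3, so each release held 1 library of each condition. A cluster led by pigment epithelium genes passed the MG rule almost entirely (83 of 84 cells), and 60 of those cells, 4.47% of its MG, lay in Yap5SA AAV replicate 3. Of the MG by the rule, 60.1%, 36.9%, 26.0% and 20.6% lay in unnamed clusters. The largest, with 993 and 823 MG, scored highest for MG. Another, led by the cone genes *Pde6h* and *Opn1sw*, held 255 MG, and 237 of its 322 cells lay in Yap5SA AAV replicate 3. One with 296 MG scored highest for astrocytes. Just below the marker threshold, the 193 cells at 0.4% to 0.5% had *Hes1* at 351 CPM, and just above it the 210 cells at 0.5% to 0.6% had 313 CPM, against 702 CPM in the remaining MG.

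Notch receptors are membrane proteins that are cleaved when a Delta or Jagged ligand on a neighbouring cell binds them. The freed intracellular part joins the DNA-binding protein RBPJ and activates *Hes* and *Hey* genes, whose products repress neuronal genes. In the retina this pathway is known for holding progenitors undifferentiated and for favouring the MG fate.

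*Hes5* was the member with the largest difference between MG and the other cells, and its promoter is shown because it is a known direct target of RBPJ. The RefSeq promoter table (GRCm38.p6) held 8 of the 10 members, all but *Hes1* and *Hey1*. In the 250 bases before the start, the RBPJ core TGGGAA was searched on both strands. Capitals mark it in the *Hes5* promoter on the forward strand at chr4:154960673-154960922:
Hes5: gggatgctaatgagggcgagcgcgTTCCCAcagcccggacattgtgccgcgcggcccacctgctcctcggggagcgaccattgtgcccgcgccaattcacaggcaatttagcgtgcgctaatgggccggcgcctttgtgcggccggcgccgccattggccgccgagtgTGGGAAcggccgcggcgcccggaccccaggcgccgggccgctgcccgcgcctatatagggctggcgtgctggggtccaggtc
*Hes5* held 2 matches, which began 226 and 82 bases before the start. The other 7 members in the table held 0 matches in this window. Of all 32851 promoter windows of this length, 21.6% held at least 1 match and 2.77% held 2 or more.

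In MG the receptors *Notch1* and *Notch2* and the repressors *Hes1* and *Hes5* had 6344 to 33208 UMIs each, while *Notch3*, *Jag1*, *Dll1* and *Dll4* had 65, 174, 358 and 7 UMIs over the 4 libraries. *Notch1* (GRCm39 chromosome 2, 26347915 to 26406675), a receptor required in retinal progenitors, was at 163 and 113 CPM with mKate2 AAV. It was at 130.5 and 134 CPM with Yap5SA AAV. *Notch2* (chromosome 3, 97920800 to 98057677) was at 155 and 109 CPM with mKate2 AAV and at 155 and 198 CPM with Yap5SA AAV. The conditions overlapped for both receptors. *Notch3* (chromosome 17, 32339794 to 32385893), best known from the mural cells of blood vessels, stayed between 0.623 and 2.10 CPM.

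The ligands were low in MG. *Jag1* (chromosome 2, 136923373 to 136958693) was at 1.18 and 4.52 CPM with mKate2 AAV and at 0.623 and 8.94 CPM with Yap5SA AAV, higher in both libraries of release 9.0.1. The MG of those libraries also carried more rod marker RNA, 0.101% and 0.19% of their UMIs over 9 markers, against 0.0121% and 0.00109% in the others, of which 1 marker was at 0 in Yap5SA AAV replicate 1. The part of this RNA in the *Jag1* values was not tested. *Dll1* (chromosome 17, 15587276 to 15597134) ranged from 4.21 to 9.87 CPM, with both extremes in Yap5SA AAV libraries. *Dll4* (chromosome 2, 119156170 to 119166443), a ligand of sprouting vessels, had at most 4 UMIs in any library and 0 in Yap5SA AAV replicate 3, where a count of 0 allows up to 0.383 CPM.

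*Hes1* (chromosome 16, 29882134 to 29886643), the repressor that keeps progenitors undifferentiated, was at 741 and 481 CPM with mKate2 AAV. With Yap5SA AAV it was at 793 and 998 CPM, above both controls. *Hes5* (chromosome 4, 155045373 to 155046828), a partly redundant repressor, was at 78.5 and 182 CPM with mKate2 AAV and at 40.3 and 289 CPM with Yap5SA AAV. Both release 9.0.1 libraries were high and both release 8.0.0 libraries low, whatever the virus. *Hey1* (chromosome 3, 8726956 to 8732385), a related repressor, followed the same order, at 7.16 and 11.3 CPM with mKate2 AAV and at 6.44 and 16.2 CPM with Yap5SA AAV. An MG-like cluster led by *Egr3*, singled out after its values were seen, held 63.8% of the *Hes5* UMIs of all clusters (365 CPM) and 42.3% of the *Hes1* UMIs. This cluster was deep, at a median of 23556 UMIs a cell, and also held 4.76% to 29.5% of the UMIs of each remaining member. Of its 435 cells, 411 passed the MG rule, and the 4 libraries had 2, 277, 63 and 93 of the 435. The part of this cluster in the differences between libraries was not tested. *Hes6* (chromosome 1, 91339204 to 91342103), which binds HES1 and opposes it, was at 9.43 and 12.5 CPM with mKate2 AAV and at 18.7 and 18.9 CPM with Yap5SA AAV, so its conditions did not overlap.

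**Figure D1:**
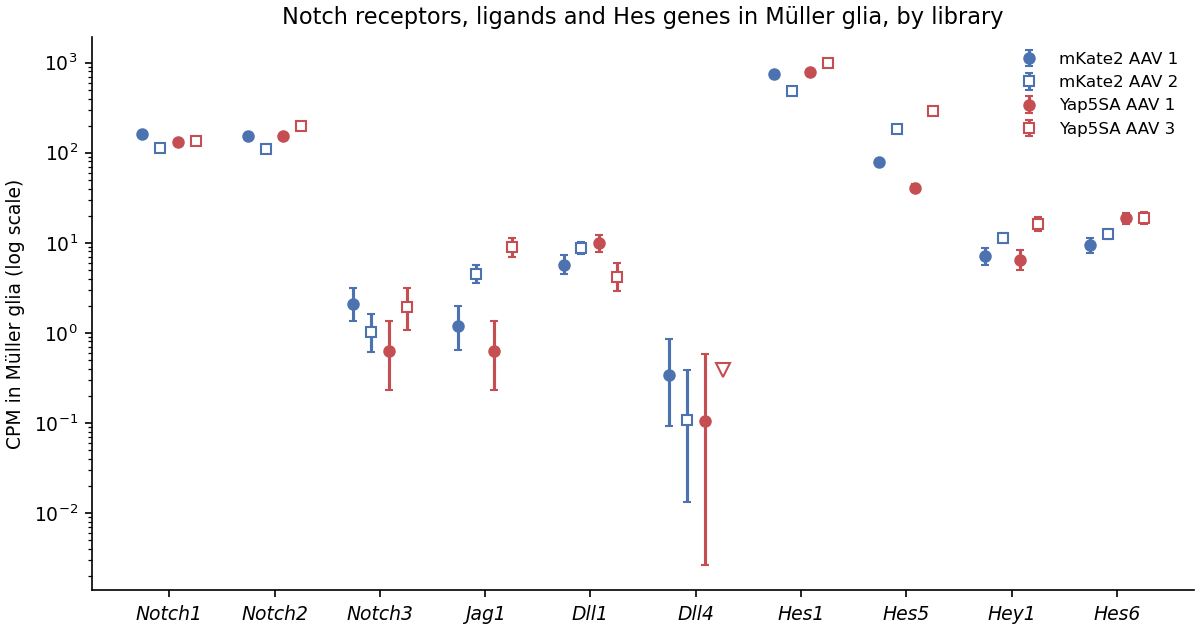
CPM of the 10 genes in MG on a log axis, 1 symbol per library (blue, mKate2 AAV; red, Yap5SA AAV; filled circles, Cell Ranger 8.0.0; open squares, 9.0.1). Bars are 95% Poisson intervals of the counts and cover counting error only. The open triangle marks the limit for 0 counts of *Dll4* (0.383 CPM). *Hes6* and *Hes1* with Yap5SA AAV lay above both controls, and *Hes5* ordered by release.

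The comparison of Yap5SA AAV with mKate2 AAV asks whether MG from retinas given the active YAP differed in these genes at day 56. The MG rule did not use tdTomato, and how many of these MG had been infected was not tested. None of the 9 members that passed the filter on low counts was called, against 0% of all 15285 genes, by edgeR's quasi-likelihood test on summed counts or by DESeq2. At an unadjusted p under 0.05, edgeR gave 0 of the 9 members and 30 of all genes (0.196%). *Dll4* did not pass the filter. On the log2 scale *Hes6* was 0.66 ± 0.36 (SE) higher with Yap5SA AAV, *Hes1* 0.48 ± 0.35 and *Notch2* 0.34 ± 0.28, each with an adjusted p of 1. The median over the 9 members was 0.21 and over all genes -0.03. *Hes6* and *Hes1* were the members whose 2 Yap5SA AAV libraries both exceeded the controls in CPM, as did 11.9% of all genes tested. *Dll4*, with its 7 UMIs and not among the genes tested, was the member with both below, as were 3.49% of the genes tested. *Hes6* in microglia and macrophages was at 17.3, 14.9, 15.5 and 13.0 CPM in the same libraries, within the range of its MG levels.

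Within each Cell Ranger release the values were not alike. *Hes1* with Yap5SA AAV was 1.07 times its control in release 8.0.0 and 2.07 times in release 9.0.1. *Hes6* was 1.98 and 1.51 times its control and so was higher in both. *Hes5* was 0.513 times its control in release 8.0.0 and 1.59 times in 9.0.1. *Notch1*, *Jag1*, *Notch3* and *Hey1* also lay below the control in release 8.0.0 and above it in 9.0.1, and *Dll1* the reverse. *Notch2* was 0.998 and 1.82 times its control. With the release as a term the *Hes5* difference turned from 0.21 ± 1.00 to -0.24 ± 0.43 on the log2 scale (adjusted p 1 in both, edgeR). In Yap5SA AAV replicate 3, pigment epithelium markers took 0.433% of the MG UMIs, against 0.00189% to 0.0539% in the other libraries (5 markers, of which 1 was at 0 in mKate2 AAV replicate 1). Their part in the release 9.0.1 ratios was not tested. In the clusters that scored as MG, without the pigment epithelium cluster, an alternative chosen after seeing the data, no gene was called either.

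Since depth per cell differed between the libraries, the share of MG with a UMI was also taken after thinning each cell to 1000 UMIs, which left out no cell. *Hes1* was found in 40.7% and 14.8% of MG with mKate2 AAV and in 43.1% and 26.0% with Yap5SA AAV. *Notch2* was found in 12.8% and 6.11% with mKate2 AAV and in 14.9% and 16.9% with Yap5SA AAV, with no overlap. *Hes1* in contrast was lowest in the 2 libraries of release 9.0.1. *Hes6* was found in 0.668% and 1.14% against 2.24% and 1.49%, and without thinning in 6.41% and 6.52% against 14.6% and 8.5%. Thinned to 2000 UMIs it was found in 2.61% and 3.35% against 1.83% and 3.33%, which turned its direction. That setting left out 308, 870, 93 and 411 cells, and each thinning was a random draw. In Yap5SA AAV replicate 1 the *Hes6* share rested on 18 of 803 cells at 1000 UMIs and 13 of 710 at 2000. *Hey1* was found in 0.734% and 0.552% against 0.996% and 1.04%. For *Notch2*, *Hes6* and *Hey1* the exact permutation test (two-sided) gave p = 0.33, the smallest that 2 libraries against 2 can give. Both Yap5SA AAV libraries were above the controls for 3 of the 10 members, and for 11.4% of the 19687 genes found in thinned MG. Both were below for 0 of the 10, and for 5.36% of those genes. *Notch1* was found in 13.7% and 6.18% against 10.7% and 9.77%, and *Hes5* in 7.14% and 6.45% against 3.24% and 10.4%, both overlapping. Without thinning, *Hes1* was found in 51.4% ± 30.8 of MG with mKate2 AAV and 63.1% ± 23.5 with Yap5SA AAV (SD, n = 2), and *Notch2* overlapped.

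Microglia and macrophages, thinned alike, give a background for free RNA only for genes that they do not transcribe themselves. *Hes5* was found in 0.324% of 926 of them in mKate2 AAV replicate 2 and in 0 of 32, 156 and 66 in the other libraries, where 0 of 156 cells allows up to 1.92%. *Hes1* was found in 15.6%, 0.864%, 18.6% and 0% of them and *Notch1* in 3.12%, 0.864%, 1.92% and 3.03%, all below the MG of the same library. Their *Hes1* was uneven, at 190 CPM in a cluster led by *Tnf* and at 4.62 to 17.7 CPM in their other clusters. How much of it was free RNA was not tested. *Hey1* was found in none of them, and 0 of 926 allows up to 0.324%, against 0.552% of MG in the same library. The counting interval of that MG share, 0.316% to 0.895%, reached below this limit. *Hes6* was found in 1.28% to 3.12% of them, against 0.668% to 2.24% of MG, so its shares in MG did not stand out from theirs. Whether the *Hes6* of either was free RNA was not tested. A ligand was found in 0% to 1.28% of them, against 0.747% to 1.42% of MG. In them this was *Jag1* alone, and *Dll1* and *Dll4* were found in none. *Jag1* stood at 6.49 to 42.9 CPM in these cells, above the MG of every library. They thus gave no clear background for *Jag1*. For *Dll1*, 0 of 926 allows up to 0.324%, against 0.449% of MG in the same library (counting interval 0.239% to 0.766%). The other libraries held too few of these cells to tell the *Dll1* and *Hey1* shares from background. *Notch2*, which these cells transcribe, was found in 2.92% to 16.7%.

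**Figure D2:**
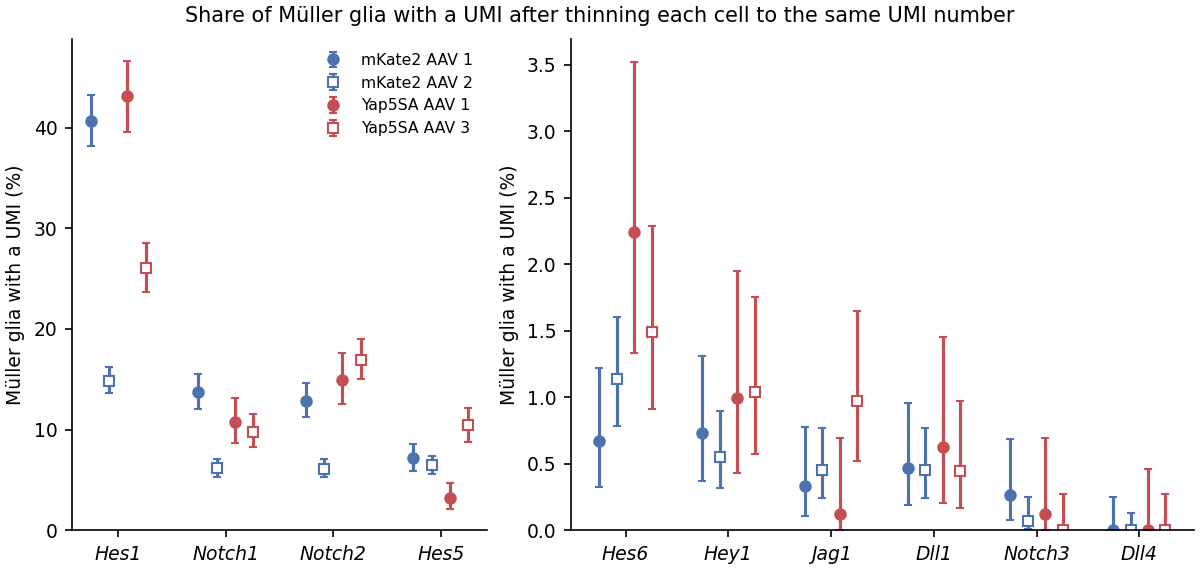
Share of MG with at least 1 UMI of each gene after thinning to 1000 UMIs per cell, in percent, with 95% exact binomial intervals (counting error only) and symbols as in the plot of CPM by library. The left panel holds the genes found in many cells and the right panel those found in few. *Notch2* with Yap5SA AAV lay above both controls, and *Hes1* was lower in the open squares.

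After thinning, at least 1 receptor was found in 24.8% and 11.5% of MG with mKate2 AAV and in 24.2% and 24.7% with Yap5SA AAV. A ligand was found in 0.747% to 1.42% of MG, and a receptor together with a ligand in at most 0.623%. *Hes1* and *Hes5* together were found in 3.67%, 1.93%, 1.62% and 4.03% of MG. The joint share cannot exceed that of the ligands and so is low whatever the receptors do. Without thinning, 68 of the 70 MG with a ligand UMI also had a receptor UMI in mKate2 AAV replicate 1 and 88 of 116 in replicate 2, where 1018 of all 1498 MG and 908 of 2898 had one. With Yap5SA AAV it was 59 of 62 and 35 of 55, where 578 of 803 MG and 732 of 1341 had one. Cells with more UMIs hold more of both, and the part of depth in these counts was not tested.

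MG differed from the other cells of the same libraries most in *Hes5*, which was at 78.5, 182, 40.3 and 289 CPM in MG and at 4.83, 3.24, 3.08 and 10.5 CPM in the other cells. Every MG value lay above every other-cell value. *Hes5* was 4.66 ± 0.56 (SE) higher on the log2 scale in MG (edgeR with library as a block, adjusted p 0.0105). The ratio was 13.1 to 56.2 in the 4 libraries, with other-cell levels that rested on 4, 93, 10 and 71 UMIs. *Notch1* was at 30.2, 21.3, 35.1 and 19.6 CPM in the other cells and was higher in MG by 2.33 ± 0.31 (adjusted p 0.0115). *Jag1* went the other way, at 4.83 (from 4 UMIs), 21.8, 12.0 and 58.6 CPM in the other cells. It was lower in MG by a log2 difference of -2.79 ± 0.51 (edgeR, adjusted p 0.0215). So 2 of the 9 members tested rose, where 6.19% of 15374 genes rose, and 1 fell, where 7.69% fell. *Notch1* and *Hes5* kept their call in each of 14 alternatives. The call for *Jag1* was lost without mKate2 AAV replicate 1 (adjusted p 0.0552) and without Yap5SA AAV replicate 3 (0.0752).

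*Hes1*, *Notch2* and *Hey1* were also higher in MG in 4 of 4 libraries, as were 21.8% of all genes tested, without passing the edgeR test. *Hes1* in the other cells was at 275 and 375 CPM in the release 8.0.0 libraries and at 18.1 and 27.7 CPM in the release 9.0.1 libraries. The release 8.0.0 libraries held 3 and 0 rods, 2 and 1 bipolar and 0 and 0 amacrine cells. Those of release 9.0.1 held 653 and 585 rods, 380 and 68 bipolar and 217 and 55 amacrine cells. The part of this composition in the difference was not tested. In mKate2 AAV replicate 1, of 228 *Hes1* UMIs in the other cells, 82 came from cells of MG-like clusters below the marker threshold (620 CPM) and 103 from unnamed cells (548 CPM). In Yap5SA AAV replicate 1 the former had 396 of 1218 UMIs (941 CPM) and microglia and macrophages 654. Against the other named classes alone, without those cells, the log2 difference was 4.38 (edgeR, adjusted p 0.0864). The MG level of *Hes1* was 2.69 and 2.11 times that of all other cells in the release 8.0.0 libraries. In the release 9.0.1 libraries it was 26.6 and 36.0 times as high. The fitted log2 difference was 3.05 ± 1.10 (edgeR, adjusted p 0.131). DESeq2 called it (3.01, adjusted p 0.00131), and called 11.1% of genes higher in MG. *Notch2* differed by 1.76 ± 0.60 (edgeR, adjusted p 0.115) and by 1.71 with DESeq2 (adjusted p 0.0176). *Hey1*, *Hes6*, *Dll1* and *Notch3* differed by 1.23 ± 0.43, -0.58 ± 0.36, -0.08 ± 0.39 and -1.46 ± 0.90, and none was called. No member, and 0% of 15374 genes, was called for an interaction of this difference with the virus (edgeR, adjusted p 1 for each member, 0.15% of genes at an unadjusted p under 0.05).

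**Figure D3:**
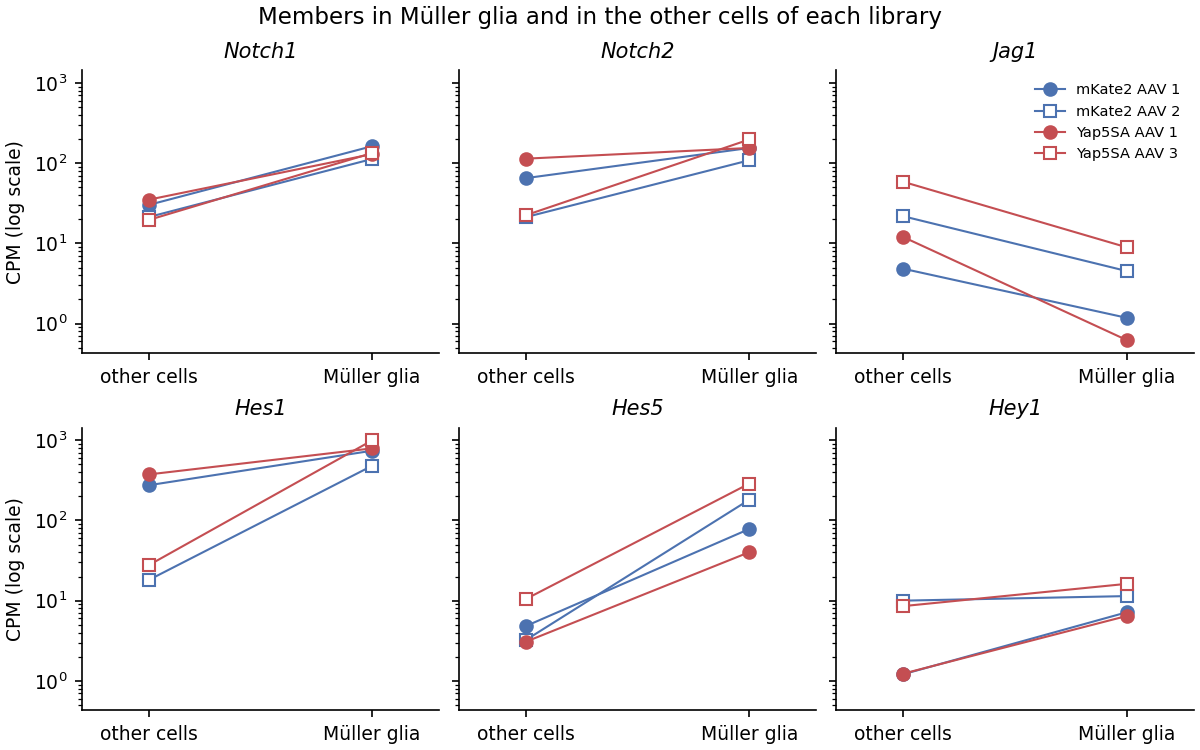
CPM (log axis) in the other cells and in MG of each library, joined by a line, for 6 of the genes, with symbols as in the plot of CPM by library. *Notch1* and *Hes5* rose and *Jag1* fell in every library. *Hes1* and *Hey1* in the other cells separated the libraries by release.

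The other cells were not one kind, and the class of each was named from clusters made without the 10 genes. *Jag1* was highest in photoreceptors, at 76.6 and 101 CPM in the rods and at 35.1 and 108 CPM in the cones of mKate2 AAV replicate 2 and Yap5SA AAV replicate 3, the 2 libraries with at least 20 such cells. *Dll1* was highest in cones, at 56.0 and 32.1 CPM, followed by rods, at 20.6 and 9.01 CPM. *Hey1* was highest in amacrine cells, at 24.7 and 16.2 CPM, a range that met that of MG at its lower end. *Hes6* was at 23.9 and 31.9 CPM in bipolar cells and at 11.3 to 17.5 CPM in rods and cones. The neurons held almost no *Hes1*, with 5.58 to 16.0 CPM in rods, cones and bipolar cells and at most 0.837 CPM in amacrine cells. *Notch1* in rods differed between the libraries, 50.6 against 6.00 CPM.

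Microglia and macrophages had *Notch2* at 108, 45.1, 138 and 65.2 CPM in the 4 libraries. T cells had it at 136 CPM in mKate2 AAV replicate 2. MG exceeded microglia and macrophages in *Notch2* in every library, but by 0.48 ± 0.28 on the log2 scale, which was not called (edgeR, adjusted p 0.185). Set against these cells alone, an alternative chosen after seeing the data, MG were higher by edgeR in *Hes5* (6.67 ± 0.53, adjusted p 2.13e-06), *Hey1* (4.21 ± 0.80, 0.0011), *Dll1* (3.51 ± 0.80, 0.00374), *Hes1* (3.34 ± 0.67, 0.00159) and *Notch1* (2.12 ± 0.32, 0.000204), where 28.9% of 14410 genes were higher. *Jag1* was lower (-2.68 ± 0.56, 0.0022), where 21.1% of genes were lower. *Hes1* in microglia and macrophages stood at 93.0, 18.8, 306 and 9.32 CPM, or 12.5%, 3.91%, 38.6% and 0.933% of the MG level of the same library. In Yap5SA AAV replicate 1, where it was highest, *Hes5* had 0 UMIs in these cells and *Notch1* stood at 21.5% of its MG level.

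**Figure D4:**
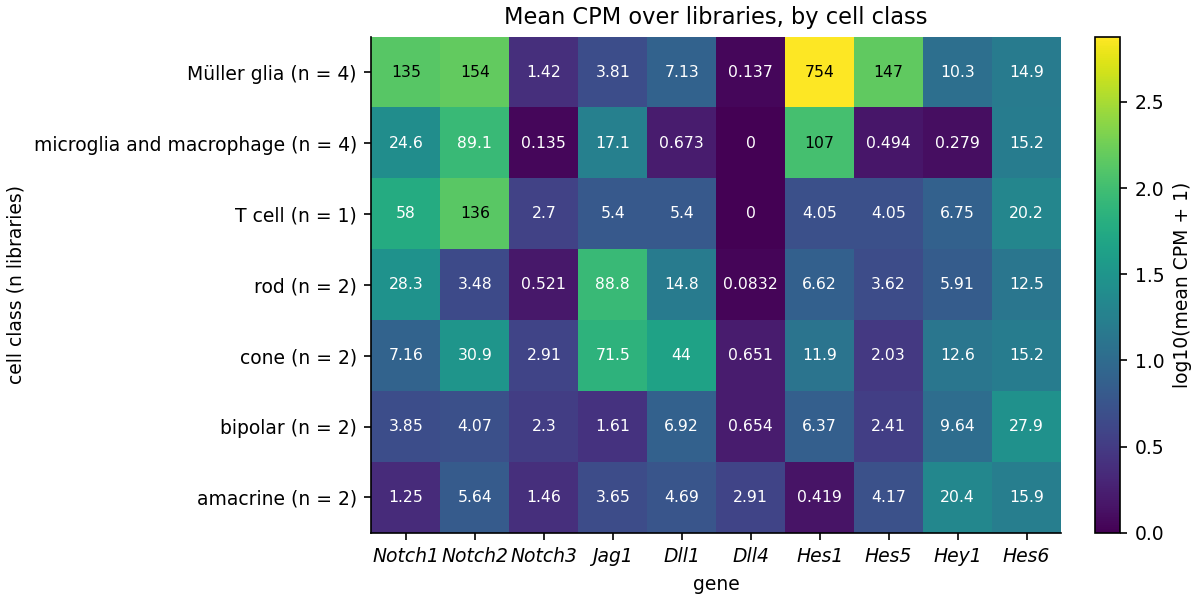
Mean CPM over libraries (written in each cell and coloured by log10 of the mean + 1) for the 10 genes in 7 cell classes, with n the libraries that held at least 20 cells of the class. Both conditions are averaged. *Hes1* and *Hes5* were highest in MG, *Jag1* in rods and cones, *Dll1* in cones and *Hey1* in amacrine cells.

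*Notch3* and *Dll4*, near 0 in MG, reached their highest level of any cluster in one led by *Igfbp2* and *Igfbp7*, with 281 of its 318 cells in mKate2 AAV replicate 2. It scored highest for endothelial cells but had 2 of those markers detected, below the 3 needed for a name. Of its cells, 87 passed the MG rule and were counted as MG. *Notch3* there had 102 of its 213 UMIs over all clusters (50.7 CPM, 95% Poisson interval 41.3 to 61.5), and *Dll4* had 30 of 63 (14.9 CPM, 10.1 to 21.3). *Dll1* reached 110 CPM from 36 UMIs in a cluster of 39 cells led by *Fbln1* and *Ifitm1*, which was singled out after its values were seen. It scored highest for MG and was counted among the MG-like clusters, and 20 of its cells passed the MG rule. None of its 10 leading genes was an MG marker, which also held for other MG-like clusters. What cell type it held was not tested further.

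The study set apart a cluster with low counts and a raised share of ribosomal genes. Here each library's MG were instead divided at their median UMI count, which is another division. Median UMIs were 11276, 5167, 17341 and 5057 in the deeper cells and 2275, 1820, 4646 and 1765 in the shallower. The depth ranges thus differed between the libraries. *Hes1* in the deeper cells was at 773, 538, 795 and 1115 CPM, and in the shallower cells at 589, 148, 785 and 375 CPM. The ratio was 1.31 and 1.01 in the release 8.0.0 libraries and 3.64 and 2.97 in the release 9.0.1 libraries. *Hes5* showed the same split, with ratios of 1.00 and 1.39 against 4.01 and 2.66. *Notch1* ratios were 1.07 and 1.17 against 2.43 and 1.39, and those of *Hey1* 1.07 and 1.22 against 2.60 and 1.80. *Hes1* and *Hes5* were thus not lower in the deeper cells of any library, and the ratios were largest in mKate2 AAV replicate 2 and Yap5SA AAV replicate 3, whose shallower cells also had 8.31% and 7.06% mitochondrial UMIs at the median, against 4.19% and 2.94%. The parts of cell quality, of the unlike depths and of the *Egr3*-led cluster in these ratios were not tested. *Hes6* did not follow them, with ratios of 0.863 and 1.27 against 0.903 and 1.20.

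None of the 8 members tested was called between deeper and shallower MG, where 2.32% of 13132 genes were called, and 2 had an unadjusted p under 0.05, as did 30.8% of genes (edgeR). These were *Hes5*, 0.81 ± 0.30 higher in deeper cells (adjusted p 0.111), and *Hes1*, 0.78 ± 0.30 (adjusted p 0.123). DESeq2 called 0 of the 8 as well, with an adjusted p of 0.0704 and 0.0611, where it called 19.7% of genes. For the interaction with the virus both had an adjusted p of 1 (edgeR, 0% of genes called and 0.51% at an unadjusted p under 0.05).

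**Figure D5:**
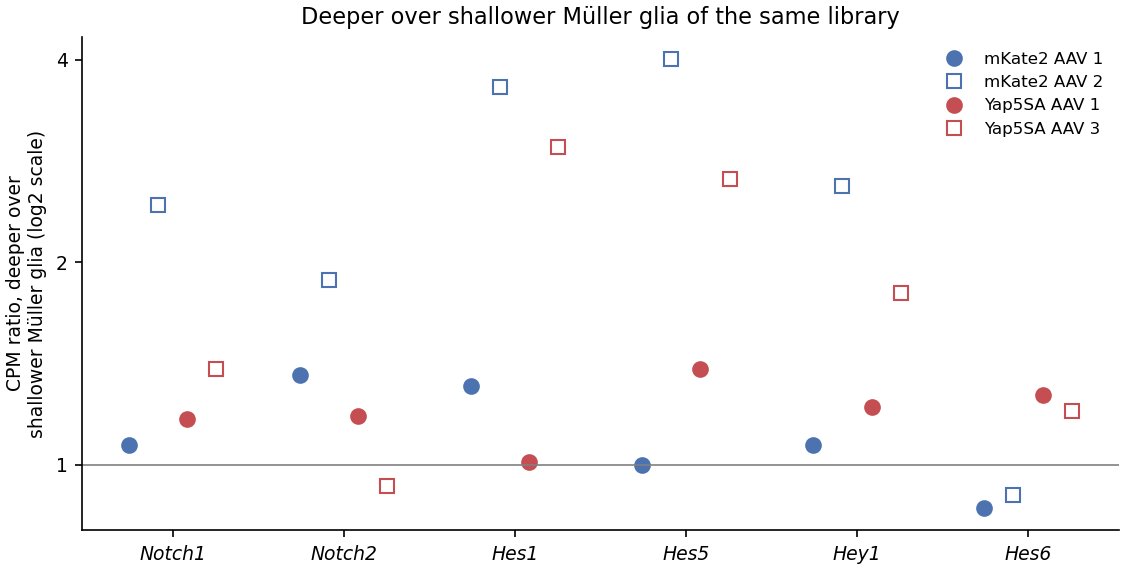
Ratio of CPM in deeper over shallower MG (log2-spaced axis, line at 1) in each library for 6 genes, with symbols as in the plot of CPM by library. For *Hes1*, *Hes5* and *Hey1* the release 9.0.1 libraries, with ratios of 1.80 to 4.01, lay above those of release 8.0.0, with 1.00 to 1.39.

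Of 45 other Notch pathway genes chosen by role, 36 passed the filter in the comparison of viruses and none was called there (edgeR and DESeq2; 0 of 36 at an unadjusted p under 0.05). The 10 with the highest mean level in MG were *Cntn1*, a membrane protein that can bind Notch, *Snw1*, *Maml2*, *Maml3* and *Rbpj*, parts of the activating complex, *Psenen*, a subunit of the protease that frees the Notch intracellular part, *Itch* and *Numb*, which lower Notch, the repressor *Hey2* and the corepressor *Spen*. *Rbpj* was at 106, 71.2, 111 and 85.8 CPM and *Hey2* at 116, 67.7, 106 and 112 CPM. These levels overlapped between the conditions. Among the 10 only *Maml3*, at 73.4 and 92.9 against 107 and 111 CPM, did not overlap. Both Yap5SA AAV libraries lay above the controls for 11.9% of all genes tested and below them for 3.49%. Some of the 45 outside these 10 did not overlap either. Between MG and the other cells, 1 of 38 tested was higher, where 6.19% of all genes were, *Hey2* by 2.16 ± 0.23 (edgeR, adjusted p 0.00957). Lower were 3, where 7.69% of all genes were, named after their values were seen, the ligand *Jag2* (-2.97 ± 0.72, 0.0483), *Mfng* (-6.94 ± 0.86, 0.0108), a glycosyltransferase that modifies Notch, and *Neurl1a* (-4.31 ± 0.66, 0.0145), a ubiquitin ligase acting on ligands. Between deeper and shallower MG none of 35 was called by edgeR, 9 had an unadjusted p under 0.05, where 30.8% of all genes did, and DESeq2 called 4, where it called 19.7%.

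The genes whose levels ran most like those of the 3 members highest in MG were sought over 25 sums of a cell class in a library, from 4 libraries, among 14509 genes. For *Hes1* they were *Etfbkmt*, *Dbi*, *Trip6*, *Id1* and *S100a1* (Pearson r of log2 CPM 0.913 to 0.926), for *Notch2* *Lfng*, *Itgav*, *Cd44*, *Dglucy* and *Shc1* (0.870 to 0.890), and for *Hes5* *Scara5*, *Qrfpr*, *Frzb*, *Enpp2* and *Col9a1* (0.903 to 0.945). These sums share libraries and cell classes, so the correlations describe the contrast between classes.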

How the data were processed

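Cells were sorted on tdTomato, run on the 10x Chromium 3′ v3.1 platform and, per the labels, processed with Cell Ranger 8.0.0 on GRCm39; the file headers gave release 9.0.1 for 2 libraries. The deposited matrices hold raw UMI counts per gene and barcode, 13132765 to 50938304 a library in the 4 used. These counts were used as deposited. Doublets were not removed. Cells were clustered with scanpy 1.11.5 (2000 variable genes without the members, 30 components, 15 neighbours, Leiden resolution 1, no integration) and named MG-like or otherwise from at least 3 detected markers; classes of other cells exclude those passing the MG rule. Counts were summed per library and tested with edgeR 4.0.16 (quasi-likelihood, TMM, filterByExpr, Benjamini-Hochberg at 0.05), with library as a block within libraries; SE were derived from the test statistic. DESeq2 1.42.0 was an alternative. The labels do not say that libraries came from separate animals, so p-values measure the spread between these libraries. On simulated counts the comparison of viruses recovered 48% of 8-fold and 0% of 2-fold changes among 15285 genes. Members, gene lists and markers were chosen with earlier results of these data known. All 10 members are named, of 45 other pathway genes the 10 with the highest mean MG level, and for the 3 highest members the 5 genes most alike. Shares were compared by exact permutation. Levels under 20 cells were not used.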

Additional observations from a re-analysis of the deposited data

How the results depend on the processing

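With 2 libraries a condition, pools of retinas and 4 in all, 2-fold changes between viruses were not recovered in simulated counts, and intervals cover counting error only. No paired analysis was possible by replicate number because, with Yap5SA AAV replicate 2 left out, the conditions share only number 1. The release, with 1 library of each condition in each, was used as a block in its place. The number of genes called between viruses was 0 under all 15 alternatives. Leaving out libraries turned the log2 difference of *Notch1* (-0.28 to 0.02), *Notch3* (-1.40 to 0.25, with 0.11 without mKate2 AAV replicate 1), *Jag1* (-2.36 to 2.04, with -0.11), *Dll1* (-0.88 to 0.31), *Hes5* (-1.85 to 1.11, with -0.33) and *Hey1* (-0.67 to 0.71, with -0.19). The release as a block gave -0.24 for *Hes5*, and 5 libraries counted singly gave -0.22 for *Hes5* and -0.09 for *Hey1*. The log2 differences of *Hes1*, *Notch2* and *Hes6* stayed above 0 in all 15. Members with non-overlapping shares numbered 3, 2 without thinning and 5 to 7 with a library left out. Leaving out a library left 1 in its condition, which makes overlap less likely for any gene. The rise to 5 to 7 is thus no result about the members. Shares over all genes were compared in the main setting only (11.4% of genes above both controls and 5.36% below). The difference in the *Hes6* share, 0.963 percentage points, was -0.397 at 2000 UMIs and 5.07 without thinning. That in the *Hes1* share, 6.81 points, was 19.7 and -6.1 without mKate2 AAV replicates 1 and 2. It was -1.72 and 15.3 without Yap5SA AAV replicates 1 and 3.

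Between MG and other cells, 2134 genes were called, 3804 with DESeq2, 7205 against microglia and macrophages alone (added after seeing the data) and 1061 to 1441 with a library left out. *Dll1* (-0.25 to 0.28 with a library left out) turned to 0.03 with no filter, 0.28 without Yap5SA AAV replicate 3, 0.21 with markers at 0.25%, 0.14 against named clusters and 3.51 against microglia.

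Between deeper and shallower MG, 305 genes were called, 578 with RLE size factors, 2471 with no filter, 1931 with DESeq2, 2447 with markers at 0.25%, 2 at 1%, 1344 with deeper cells thinned (added after seeing the data), and 0 with at least 2000 UMIs, in MG-like clusters and in clusters scoring as MG (added). With a library left out it was 0 to 2741, namely 20 and 0 without mKate2 AAV replicates 1 and 2, and 2741 and 0 without Yap5SA AAV replicates 1 and 3. *Hes1* was called without Yap5SA AAV replicate 1 (adjusted p 0.0276, edgeR) and with no filter (0.0273), and *Hes5* with no filter (0.0126). With a library left out, *Jag1* ranged from -1.04 to 0.04, *Dll1* from -0.07 to 0.37 (-0.03 without mKate2 AAV replicate 1) and *Hes6* from -0.27 to 0.01; *Dll1* was -0.02 thinned, and *Hes6* 0.17 in clusters scoring as MG. The causes were not tested.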
